A study of Mus musculus with 10 samples.

Results

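The Hedgehog genes described here are 8 genes chosen by name from the 30719 genes of the table: Dhh, which encodes the ligand, Ptch1 and Smo, which encode the receptor and the signal transducer, Sufu, Gli1, Gli2 and Gli3, which encode the intracellular effectors, and Hhip, which encodes a binding protein of the ligand. Each name matched 1 row, and all 8 genes were among the 18559 that passed the filter on low counts. The RNA came from whole testes of mice at postnatal day 10, taken from 5 FXR-/- mice and 5 wild-type (WT) mice, with 1 library per mouse. FXR-/- mice lack FXRα, a nuclear receptor activated by bile acids that is encoded by Nr1h4. All mice carried a mix of 129sv and C57Bl, both were untreated as far as the labels say, and all libraries were sequenced on 1 flowcell. The labels name no promoter or Cre driver and do not say which exons of Nr1h4 were removed or whether the mice were littermates.

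Hedgehog signalling starts when the ligand binds Patched, a membrane protein that otherwise keeps Smoothened silent. Released Smoothened acts at the primary cilium, where GLI transcription factors are freed from SUFU and switched from repressors to activators. Sertoli cells of the mouse testis make Desert hedgehog, and the receiving cells lie outside the tubules: Leydig cell precursors, Leydig cells and peritubular myoid cells. Gli1, Ptch1 and Hhip are themselves transcribed in response to the signal and are widely used as its readouts, and mice without Dhh have defects of Leydig and peritubular cells.

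The libraries held 33037427 to 39655170 counts in FXR-/- testes and 32330029 to 35006180 counts in WT testes, and mitochondrial genes took 2.23% ± 0.162 of the counts in FXR-/- testes and 1.88% ± 0.0714 in WT testes (SD, n = 5 each), a difference whose part in the results below was not tested. Nr1h4 was close to the detection limit, with 8 to 13 counts in FXR-/- libraries and 13 to 26 counts in WT libraries (log2 fold change -0.84, SE 0.234, adjusted p = 0.0347 by edgeR's quasi-likelihood test), counts too low for more than a weak check of the labels. Every cell type list examined was detected, with no marker at 0 in all libraries. FXR-/- mouse 8 stood apart from the other FXR-/- mice in several of the genes below, and the main values below are also given without it. Fold changes are FXR-/- over WT, CPM are TMM-scaled read counts relative to library size, and a gene was said to rise or fall when its p from edgeR's quasi-likelihood test, adjusted over all tested genes, was under 0.05.

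Of the 8 Hedgehog genes, 2 fell in FXR-/- testes and 6 did not pass the test. In the whole table, 13.9% of tested genes were called in either direction, 6.17% higher and 7.71% lower. The 8 genes were chosen with earlier results of these data known, so their share of calls is not independent evidence. The genes that fell were the ligand gene Dhh, by 1.42-fold, and the receptor gene Ptch1, by 1.34-fold. Gli1 and Hhip, the other readouts of the signal, did not pass, and neither did Smo, Sufu, Gli2 or Gli3. The median log2 fold change of the 8 genes was -0.08, against 0.01 over all tested genes.

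**Figure D1:**
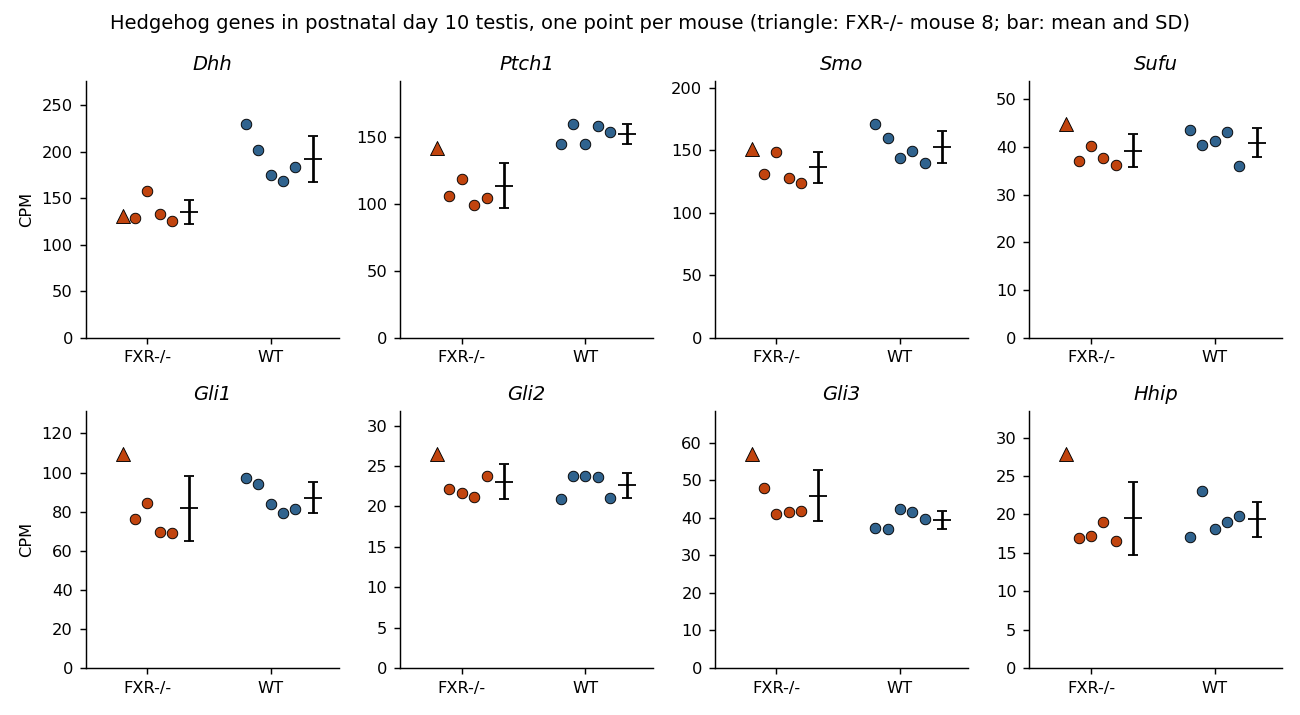
CPM (vertical axes, starting at 0) of the 8 Hedgehog genes in each mouse, with FXR-/- mice on the left and WT mice on the right; bars give the mean and SD of 5 mice, and the triangle is FXR-/- mouse 8. Dhh lies between 126 and 158 CPM in FXR-/- mice and between 169 and 230.1 CPM in WT mice, and FXR-/- mouse 8 is the highest of all 10 mice in Sufu, Gli1, Gli2, Gli3 and Hhip.

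Dhh (ENSMUSG00000023000) lies on the minus strand of GRCm38 chromosome 15, from 98891152 to 98898540. The 250 bases before its RefSeq start (GRCm38.p6, chr15:98898541-98898790, minus strand) are shown because Dhh is the ligand gene and the larger of the falls, with CpG dinucleotides in capitals.
Dhh: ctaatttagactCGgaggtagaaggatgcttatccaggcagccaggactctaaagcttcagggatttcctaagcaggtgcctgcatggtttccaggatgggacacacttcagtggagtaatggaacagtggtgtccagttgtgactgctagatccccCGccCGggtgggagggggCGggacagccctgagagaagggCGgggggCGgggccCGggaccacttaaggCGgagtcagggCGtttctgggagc
This window holds 9 CpGs, against a median of 6 over the 32851 RefSeq promoter windows of the same length, and its GC content is 59.6%, against a median of 52.4%.

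Dhh stood at 131, 128, 158, 133 and 126 CPM in FXR-/- mice 8 to 12, against 230.1, 202, 175, 169 and 183 CPM in WT mice 3, 4, 5, 6 and 9. The highest FXR-/- mouse, number 10, was below the lowest WT mouse, so the groups did not overlap. The means were 135 ± 13.0 CPM in FXR-/- testes and 192 ± 24.7 CPM in WT testes (SD, n = 5 each). The log2 fold change was -0.50 (SE 0.0876, 95% interval -0.69 to -0.31, edgeR adjusted p = 0.00418), and an exact two-sided permutation test over mice gave p = 0.00794, the smallest that 252 assignments allow. Dhh kept its call without any single mouse, with adjusted p-values up to 0.0145 by edgeR. Reads of whole testis cannot tell fewer Sertoli cells from less Dhh RNA per Sertoli cell. Part of the Dhh transcript, 1107 bases, overlaps exons of Rhebl1, transcribed from the same strand, and of Gm49442, transcribed from the other strand, and the use of strand in the counting is not given in the sources used here. Rhebl1 itself had 10.1 ± 1.67 CPM in FXR-/- testes and 9.55 ± 0.894 CPM in WT testes (SD, n = 5 each).

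Ptch1 (ENSMUSG00000021466), the receptor gene, lies on the minus strand of chromosome 13, from 63508328 to 63573598. The 250 bases before its RefSeq start (GRCm38.p6, chr13:63565736-63565985, minus strand) are shown for comparison with those of Dhh, again with CpGs in capitals.
Ptch1: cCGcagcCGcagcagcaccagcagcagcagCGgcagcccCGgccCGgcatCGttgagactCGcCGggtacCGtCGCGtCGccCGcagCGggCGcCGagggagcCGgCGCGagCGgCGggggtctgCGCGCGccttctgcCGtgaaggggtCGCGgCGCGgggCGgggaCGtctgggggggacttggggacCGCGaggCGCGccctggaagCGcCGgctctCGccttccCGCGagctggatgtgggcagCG
With 41 CpGs and a GC content of 78.4% this window is a CpG-dense promoter, unlike that of Dhh. The Ptch1 window lies inside the annotated span of the gene, downstream of its 5' end, whereas the Dhh window lies directly before the gene. Sequence windows were available for 7 of the 8 genes, all but Gli1. The GLI consensus GACCACCCA, searched on both strands, was found in 0.225% of all promoter windows and in 0 of these 7. The nuclear receptor half-site AGGTCA was found in 14.0% of all windows, and the FXR-type inverted repeat of that half-site with a spacer of 1 base, which contains it, in 0.00609%, and both were found in 0 of the 7. The absence of a match says only that these letters are not in these 250 bases.

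Ptch1 stood at 142, 106, 118, 98.8 and 104 CPM in FXR-/- mice 8 to 12, against 144, 159.9, 145, 158 and 154 CPM in WT mice 3, 4, 5, 6 and 9. FXR-/- mouse 8 came close to the lowest WT mouse, the other 4 FXR-/- mice were well below, and the groups did not overlap. The means were 114 ± 17.1 CPM in FXR-/- testes and 152 ± 7.25 CPM in WT testes (SD, n = 5 each), with a log2 fold change of -0.42 (SE 0.0856, 95% interval -0.61 to -0.23, edgeR adjusted p = 0.00854; exact two-sided permutation p = 0.00794). Without FXR-/- mouse 8 the log2 fold change was -0.51 (edgeR adjusted p = 0.000359), and over all single mice left out it ran from -0.51 to -0.37. Dhh and Ptch1 were thus both lower and non-overlapping, whereas 11.6% of all tested genes did not overlap between the groups, 5.12% with FXR-/- mice higher and 6.44% with them lower.

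Smo, which encodes the membrane protein released by Patched, lies on the plus strand of chromosome 6 (29735503 to 29761365). Smo had 151, 131, 149, 128 and 124 CPM in FXR-/- mice 8 to 12, against 171, 159.7, 144, 149 and 139.9 CPM in WT mice 3, 4, 5, 6 and 9. The groups overlapped, with FXR-/- mice 8 and 10 inside the WT range. The log2 fold change was -0.16 (SE 0.0708, 95% interval -0.32 to -0.01), with an edgeR adjusted p of 0.145 and an exact two-sided permutation p of 0.0794, and it was -0.20 without FXR-/- mouse 8 (edgeR adjusted p = 0.0833). Sufu, the gene of the cytoplasmic inhibitor that holds GLI proteins, lies on the plus strand of chromosome 19 (46396896 to 46488804). It averaged 39.2 ± 3.50 CPM in FXR-/- testes and 40.9 ± 3.05 CPM in WT testes (SD, n = 5 each), with overlapping groups. Its log2 fold change was -0.06 (95% interval -0.21 to 0.09, edgeR adjusted p = 0.612), and -0.11 without FXR-/- mouse 8 (edgeR adjusted p = 0.259).

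Gli1, the activator whose own transcription follows the signal, lies on the minus strand of chromosome 10 (127329882 to 127341974), the chromosome that also carries Nr1h4 (89454234 to 89533585). Gli1 had 109, 76.4, 84.2, 69.5 and 68.9 CPM in FXR-/- mice 8 to 12, against 97.3, 94.0, 83.8, 79.0 and 81.6 CPM in WT mice 3, 4, 5, 6 and 9. FXR-/- mouse 8 was above every WT mouse, mouse 10 lay inside the WT range, and mice 9, 11 and 12 were below it. With all mice the log2 fold change was -0.09 (SE 0.117, 95% interval -0.35 to 0.16, edgeR adjusted p = 0.635). Without FXR-/- mouse 8 it was -0.22, and it still did not pass (edgeR adjusted p = 0.0877). A stretch of 327 bases of Gli1 overlaps Arhgap9 and Gm47200 on the other strand, and Arhgap9 had 1.57 ± 0.284 CPM in FXR-/- testes and 1.60 ± 0.0825 CPM in WT testes (SD, n = 5 each).

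Gli2, the main GLI activator of embryonic tissues, lies on the minus strand of chromosome 1 (118834132 to 119053619). It averaged 23.0 ± 2.15 CPM in FXR-/- testes and 22.6 ± 1.52 CPM in WT testes (SD, n = 5 each), with a log2 fold change of 0.03 (95% interval -0.13 to 0.19, edgeR adjusted p = 0.837). Without FXR-/- mouse 8 the sign of this value turned, to -0.03 (edgeR adjusted p = 0.812). Gli3, which yields the main GLI repressor, lies on the plus strand of chromosome 13 (15463235 to 15730026). Gli3 had 57.0, 48.1, 41.1, 41.5 and 42.0 CPM in FXR-/- mice 8 to 12, against 37.2, 37.1, 42.3, 41.5 and 39.6 CPM in WT mice 3, 4, 5, 6 and 9. FXR-/- mice 8 and 9 exceeded all WT mice and the other 3 lay within the WT range. Its log2 fold change was 0.22 (SE 0.0889, 95% interval 0.02 to 0.41, edgeR adjusted p = 0.127), and 0.12 without FXR-/- mouse 8 (edgeR adjusted p = 0.212).

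Hhip, whose product binds the ligand at the surface of receiving cells and limits its range, lies on the minus strand of chromosome 8 (79965851 to 80058006). Hhip had 27.9, 16.9, 17.1, 19.0 and 16.6 CPM in FXR-/- mice 8 to 12, against 17.0, 23.1, 18.1, 19.0 and 19.8 CPM in WT mice 3, 4, 5, 6 and 9. FXR-/- mouse 8 was the highest of all and the other 4 overlapped the WT mice. The log2 fold change was 0.01 (SE 0.141, 95% interval -0.30 to 0.31, edgeR adjusted p = 0.986), and without FXR-/- mouse 8 it was -0.16 (edgeR adjusted p = 0.262). A stretch of 175 bases of Hhip overlaps Gm27820 on the other strand.

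**Figure D2:**
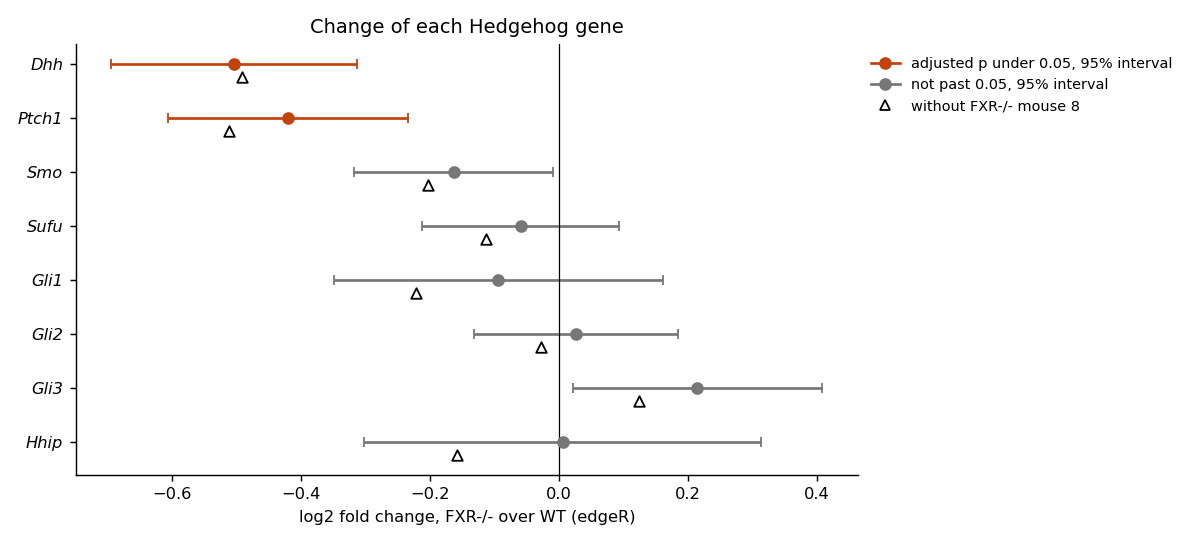
The log2 fold change of each Hedgehog gene, FXR-/- over WT, from edgeR with its 95% interval (horizontal axis); open triangles give the value without FXR-/- mouse 8. The intervals of Dhh at -0.50, Ptch1 at -0.42 and Smo at -0.16 stay below 0, and that of Gli3 at 0.22 stays above 0. Only Dhh and Ptch1 passed the test on adjusted p. Leaving out mouse 8 moves the values of all genes but Dhh to the left.

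The levels of different genes were compared per kilobase of the transcript with the longest coding sequence. In FXR-/- testes the order was Smo (36.1 ± 3.32 CPM per kb), Dhh (31.9 ± 3.08), Sufu (22.5, range 20.8 to 25.7), Gli1 (20.1 ± 4.12), Ptch1 (14.7 ± 2.22), Gli3 (5.62 ± 0.837), Gli2 (3.47 ± 0.324) and Hhip (2.15 ± 0.527). In WT testes Dhh came first at 45.2 ± 5.82 CPM per kb, followed by Smo (40.5 ± 3.35), Sufu (23.4 ± 1.74), Gli1 (21.5 ± 1.98), Ptch1 (19.7 ± 0.939), Gli3 (4.84 ± 0.293), Gli2 (3.41 ± 0.229) and Hhip (2.14 ± 0.253; SD, n = 5 each). Among WT mice the ranges of Dhh and Smo overlapped, as did those of neighbours among Sufu, Gli1 and Ptch1, while Gli3, Gli2 and Hhip were each separate from the next. The order depends on the length used. Per kilobase of all annotated exons, Sufu had 5.32 CPM per kb in WT testes and stood below Ptch1 at 10.7, and Dhh, at 30.7 CPM per kb in FXR-/- testes, stood above Smo at 24.3.

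Ratios between genes within a library do not depend on the scaling. The ligand was set against a list of 15 Sertoli cell markers, which did not include Dhh. The Sertoli markers summed to 4078 to 5641 CPM in FXR-/- testes and 5714 to 6768 CPM in WT testes, lowest in FXR-/- mouse 8. Of the 15 markers, 10 fell, 1 rose and 4 did not pass, with a median log2 fold change of -0.37 against 0.01 over all tested genes. Clu, the gene of the secreted protein clusterin, had a log2 fold change of -0.60 and Amhr2, the receptor gene for anti-Müllerian hormone, one of -0.51 (edgeR adjusted p = 0.0108 and 0.003), while Cst9, a cystatin gene, rose with a log2 fold change of 0.76 (adjusted p = 0.00383). The count of Sertoli markers called fell to 7, 6, 5 and 6 without FXR-/- mouse 8, WT mouse 4, FXR-/- mouse 11 and FXR-/- mouse 12, each left out alone.

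Dhh amounted to 2.75% of the summed Sertoli marker counts in FXR-/- testes and 2.99% in WT testes (geometric means, n = 5 each). Clu had 1613 CPM of a mean marker sum of 4933 CPM in FXR-/- testes, and 2445 of 6383 CPM in WT testes. The sum thus gives much weight to Clu, at 1091 CPM in FXR-/- mouse 8 and 1634 to 1843 CPM in the other FXR-/- mice. The log2 ratio of Dhh to the sum differed by -0.12, with an SD of 0.147 in FXR-/- mice and 0.122 in WT mice (exact two-sided permutation p = 0.198). In FXR-/- mouse 8 the log2 ratio was -4.96, against -5.36 to -5.16 in the other FXR-/- mice, and without it the difference was -0.18 (exact permutation p = 0.0317). Against the mean log2 CPM of the same markers, which gives each marker equal weight, the difference was -0.21 (exact permutation p = 0.00794). Dhh was thus lower along with the Sertoli markers, and whether it was lower than they were depended on how the markers were combined and on mouse 8.

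Gli1 per Dhh was higher in FXR-/- testes. The log2 ratio of Gli1 to Dhh counts was -0.74 ± 0.283 in FXR-/- mice and -1.13 ± 0.0713 in WT mice (SD, n = 5 each), a difference of 0.39 with no overlap between the groups (exact two-sided permutation p = 0.00794). Leaving out any single mouse gave differences from 0.27 to 0.44, the lowest without FXR-/- mouse 8. Gli1 per Ptch1, a ratio chosen after the values were seen, also differed, by 0.32 (exact permutation p = 0.0159). Ptch1 per Dhh, likewise chosen afterwards, stood at -0.26 ± 0.221 in FXR-/- mice and -0.33 ± 0.213 in WT mice (SD, n = 5 each; exact permutation p = 0.643). Gli1 was thus higher relative to both Dhh and Ptch1, and no difference between Ptch1 and Dhh was shown. Gli1 itself did not pass (log2 fold change -0.09, edgeR adjusted p = 0.635), so the 2 Gli1 ratios largely restate the lower Dhh and Ptch1. The mean Sertoli marker sum differed by -22.7% in FXR-/- against WT testes, and that of the interstitial markers described below by -1.59%. The part of these sums in the ratios was not tested.

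**Figure D3:**
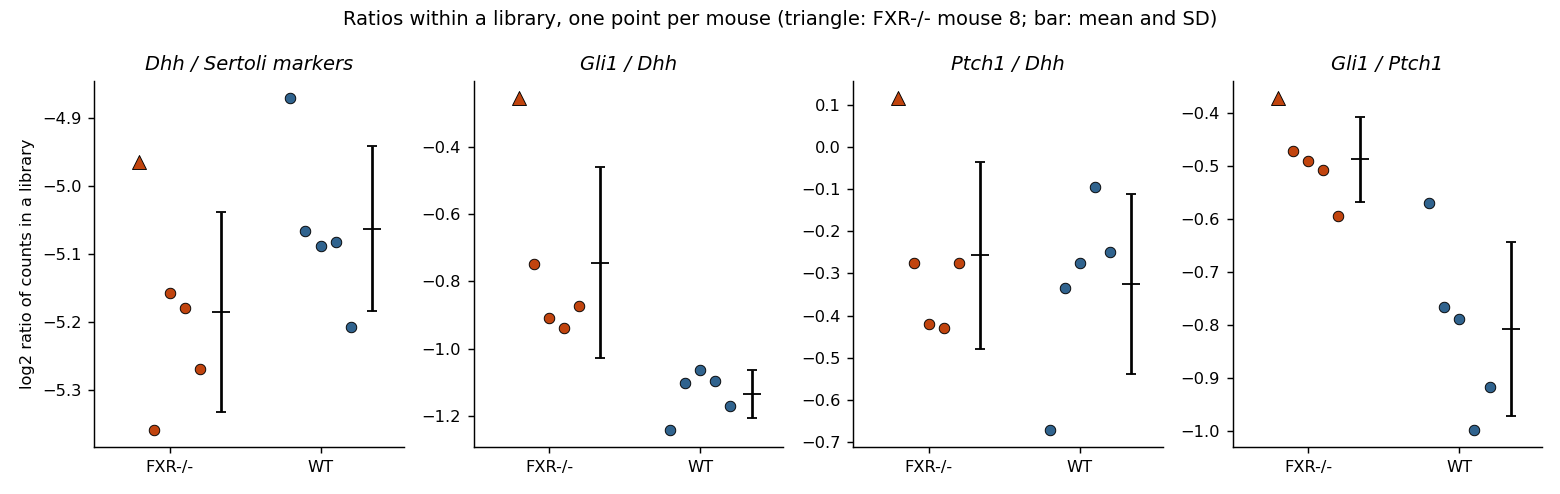
Log2 ratios of counts within a library (vertical axes, which do not start at 0) for Dhh to the summed Sertoli markers, Gli1 to Dhh, Ptch1 to Dhh and Gli1 to Ptch1, with FXR-/- mice left, WT mice right, bars for mean and SD, and a triangle for FXR-/- mouse 8. The groups are separate for Gli1 to Dhh, at -0.94 to -0.25 in FXR-/- mice and -1.24 to -1.06 in WT mice, and overlap in the other panels.

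The receiving cells were set against 11 markers of interstitial progenitors and fibroblasts. These summed to 5280 to 7847 CPM in FXR-/- testes and 6013 to 7859 CPM in WT testes, and 1 of 11 rose (Lum, the gene of the matrix proteoglycan lumican, log2 fold change 0.50, edgeR adjusted p = 0.0228, which lost its call without WT mouse 5 or 9) while 10 did not pass. Most of the mean sum came from Col1a1, Col1a2 and Col3a1, at 1155, 1824 and 2355 CPM in FXR-/- testes. In WT testes these had 1162, 1952 and 2296 CPM, so ratios to the sum mainly follow collagen genes. At an unadjusted edgeR p under 0.05, 3 of the 11 were lower and 1 higher. DESeq2 called 2 lower and 1 higher, and limma-voom 0 lower and 1 higher. Gli1 per interstitial marker counts differed by -0.08 (exact two-sided permutation p = 0.373), by -0.14 without FXR-/- mouse 8 (exact permutation p = 0.0556) and by -0.14 to -0.03 over all single mice left out. Ptch1 per interstitial marker counts, chosen after the values were seen, differed by -0.40, with -5.85 ± 0.161 in FXR-/- mice and -5.45 ± 0.201 in WT mice (SD, n = 5 each; exact permutation p = 0.0238). The difference between these 2 values is that of Gli1 per Ptch1, given above.

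Among mice of the same genotype the genes were compared as deviations of log2 CPM from the genotype mean, in all 28 pairs over 10 mice, since 5 mice per genotype are too few for a correlation of their own. Smo and Gli1 deviated together (Pearson r = 0.85, permutation p = 0.00087, adjusted over 28 pairs 0.0244; Spearman rho = 0.87, adjusted p = 0.0574; r = 0.83 without the 2 mice farthest from the median of Smo). This pair was the only 1 of 28 to pass by Pearson r, and 0 passed by Spearman rho (6 had an unadjusted Pearson p and 4 an unadjusted Spearman p under 0.05). Dhh and Gli1 had r = 0.42 (permutation p = 0.194, adjusted p = 0.302; rho = 0.56, adjusted p = 0.276; r = 0.35 without the 2 farthest mice). Without FXR-/- mouse 8, a choice made after seeing the data, their r was 0.89. Dhh and Ptch1 had r = 0.03 (permutation p = 0.932, adjusted p = 0.932; rho = 0.16, adjusted p = 0.711; r = 0.12 without the 2 farthest mice).

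**Figure D4:**
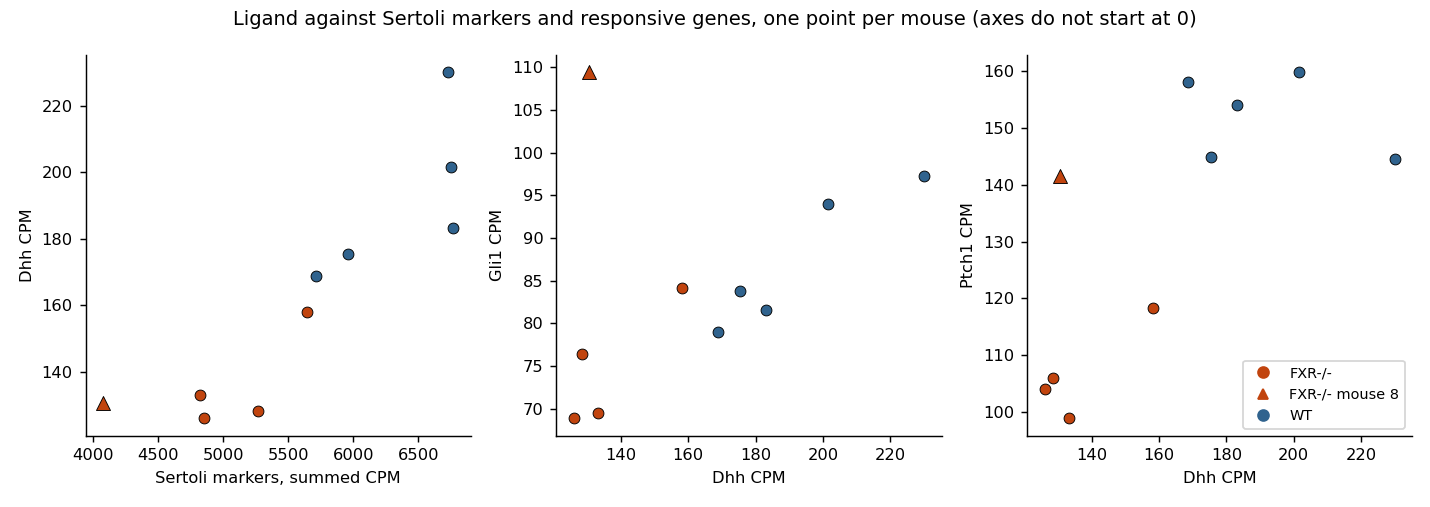
Each point is a mouse: Dhh CPM against the summed CPM of Sertoli markers (left), and Gli1 CPM (middle) and Ptch1 CPM (right) against Dhh CPM; axes do not start at 0. FXR-/- mouse 8 (triangle) combines the lowest Sertoli value, 4078 CPM, with the highest Gli1 value, 109 CPM.

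Among 11736 named genes of at least 5 CPM, those whose deviations from the genotype mean followed Dhh most closely over the 10 mice were Gja1 (r = 0.98), the gene of the gap junction protein connexin 43, Sfxn2 (r = 0.98), Inhbb (r = 0.98), the gene of the activin and inhibin subunit beta B and 1 of the Sertoli markers, Mamld1 (r = 0.98) and Wnt6 (r = 0.98), a WNT ligand gene. Gja1 and Inhbb fell in FXR-/- testes (log2 fold change -0.46 and -0.34, edgeR adjusted p = 0.0147 and 0.0295) and the other 3 did not pass. For Gli1 the closest genes were Iqgap3 (r = 0.98), S1pr2 (r = 0.97), a sphingosine-1-phosphate receptor gene, Wdr92 (r = 0.96), Lgals7 (r = 0.96) and Casp9 (r = 0.96), the gene of an initiator caspase, and all 5 had adjusted p-values over 0.05 between the genotypes. These correlations were the highest of many and share libraries and depth.

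The wider pathway was read from 5 lists with 71 genes in the table, of which 69 were tested. Of these, 6 rose, 11 fell and 52 did not pass, so that 24.6% were called, with a median log2 fold change of -0.02. Over all tested genes 13.9% were called, 6.17% higher and 7.71% lower, shares that also apply to the list counts below. The pathway and cell type lists were chosen with earlier results of these data known. A larger share of calls in a list is therefore not independent evidence. The pathway genes split into 6 higher and 7 lower with library totals alone, and 5 higher and 7 lower with no filter on low counts. With DESeq2 the split was 7 higher and 16 lower. The count also moved with single mice: 17 genes were called with all mice, and 8 without FXR-/- mouse 11, 9 without WT mouse 5, 10 without WT mouse 9, 10 without FXR-/- mouse 12 and 11 without WT mouse 4 or 6. The calls over all genes moved too, at 2576 with all mice, 1427 without FXR-/- mouse 11, 1883 without WT mouse 5 or WT mouse 9, 1635 without FXR-/- mouse 12, 1601 without WT mouse 4 and 1985 without WT mouse 6.

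In the list of ligand processing and release, 4 of 11 genes rose and 7 did not pass, with a median log2 fold change of 0.28. Scube1, which encodes a secreted protein related to the SCUBE factors that help release lipid-bearing ligand, rose by 1.26-fold (edgeR adjusted p = 0.0136). The glypican genes Gpc6 (1.33-fold, adjusted p = 0.0275) and Gpc3 (1.21-fold, adjusted p = 0.0439) rose as well; glypicans are cell surface proteoglycans that bind Hedgehog proteins. Gpc3 lost its call without any 1 of 8 mice and Gpc6 without any 1 of 3 (WT mice 5, 6 and 9), with edgeR adjusted p up to 0.102 and 0.0627. Disp1, whose product releases the ligand from the producing cell, had 45.0 ± 2.42 CPM in FXR-/- testes and 48.1 ± 2.73 CPM in WT testes (SD, n = 5 each; edgeR adjusted p = 0.24), and Hhat, whose product attaches its lipid, 8.61 ± 0.627 and 8.40 ± 0.629 CPM (adjusted p = 0.816); both were named after their values were seen.

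The other Hedgehog ligands were scarce. Ihh, the Indian hedgehog gene, had 49, 58, 48, 56 and 62 counts in FXR-/- mice 8 to 12, against 26, 43, 29, 37 and 34 counts in WT mice 3, 4, 5, 6 and 9. In CPM its groups overlapped in 1 pair of mice, FXR-/- mouse 10 at 1.21 and WT mouse 4 at 1.24, and it rose by 1.44-fold (edgeR adjusted p = 0.0375), a call lost without any 1 of 8 mice (adjusted p up to 0.0859). Shh, the Sonic hedgehog gene, named after its values were seen, had 31, 27, 42, 118 and 79 counts in FXR-/- mice 8 to 12, against 14, 32, 16, 30 and 6 counts in WT mice 3, 4, 5, 6 and 9. Mice 11 and 12 carried most of the FXR-/- signal and the groups overlapped (log2 fold change 1.41, SE 0.461, 95% interval 0.41 to 2.42, edgeR adjusted p = 0.0619). Markers of duct epithelium, rete testis and epididymis were higher in the same libraries: 8 of 9 rose and 1 did not pass, and their sum was 116 to 172 CPM in FXR-/- testes, highest in mouse 11, against 68.0 to 86.4 CPM in WT testes. Krt18, Krt7 and Krt8, keratin genes of such epithelium, rose by 2.71-fold, 2.56-fold and 2.53-fold (edgeR adjusted p = 0.000368, 0.00243 and 0.00139). Their part in the Ihh and Shh values was not tested.

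Of the 5 co-receptor genes, 0 passed by edgeR's test, by DESeq2 or by limma-voom, and 2 had an unadjusted edgeR p under 0.05. Cdon, which encodes a co-receptor that helps present the ligand to Patched, had 103 ± 18.5 CPM in FXR-/- testes and 105 ± 14.4 CPM in WT testes (SD, n = 5 each; edgeR adjusted p = 0.876), a log2 fold change of -0.04 with all mice and -0.13 without FXR-/- mouse 8 (edgeR adjusted p = 0.476).

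Among 28 genes of signal transduction and GLI control, 1 rose, 6 fell and 21 did not pass. DESeq2 called 1 higher and 9 lower, and limma-voom 1 higher and 6 lower. Efcab7, which encodes a protein that anchors the Smoothened-binding EVC complex in the cilium, rose by 1.71-fold, with 11.2, 7.29, 12.1, 13.1 and 13.3 CPM in FXR-/- mice 8 to 12, against 6.59, 8.17, 6.58, 6.31 and 5.6 CPM in WT mice 3, 4, 5, 6 and 9 (edgeR adjusted p = 0.00831). FXR-/- mouse 9 lay within the WT range and the other 4 above it. The falls were small: Fbxw11, a ubiquitin ligase subunit gene that acts beside Btrc, fell by 1.17-fold, and Prkaca, which encodes the catalytic subunit of protein kinase A, a kinase that marks GLI proteins for processing, by 1.16-fold (edgeR adjusted p = 0.00364 and 0.00733). Gsk3b, Spop and Tulp3 also fell, at log2 fold changes of -0.16, -0.20 and -0.20, and were named after their values were seen.

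Of 15 primary cilium genes, 4 fell and 11 did not pass, while 7.71% of all tested genes fell. Ift140, a subunit of the intraflagellar transport complex A, fell by 1.30-fold, to 75.9 ± 5.32 CPM in FXR-/- testes against 98.5 ± 2.61 CPM in WT testes (SD, n = 5 each; edgeR adjusted p = 0.000698), with no overlap. Ift57, of complex B, fell by 1.32-fold, the kinesin motor gene Kif3b by 1.13-fold and Ift122, also of complex A, by 1.14-fold (edgeR adjusted p = 0.0148, 0.0247 and 0.043). Ift57 shares 225 bases with Gm15518 on the other strand. Ift122 lost its call without any 1 of 9 mice and Kif3b without WT mouse 4, WT mouse 9 or FXR-/- mouse 11 (adjusted p up to 0.0938 and 0.0659). The summed cilium genes were at 791 to 849.9 CPM in FXR-/- testes and 850.4 to 928 CPM in WT testes. Germ cell markers summed to 1555 to 1981 CPM in FXR-/- testes and 1225 to 1736 CPM in WT testes, with 2 of 9 rising and 7 not passing (Mael, of the piRNA pathway, and Sohlh1, a transcription factor of spermatogonia), and their part in the cilium values was not tested. Mael and Sohlh1 lost their calls without any 1 of 7 and 6 mice (edgeR adjusted p up to 0.09 and 0.0657). Of the 9 germ cell markers, DESeq2 called 4 higher and limma-voom 2, and 5 were higher at an unadjusted edgeR p under 0.05. By each of these, 0 were lower.

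Among 11 tested genes that respond to Hedgehog signalling in other mouse tissues, 1 rose, 1 fell and 9 did not pass, with a median log2 fold change of 0.09. Ccnd2, the cyclin D2 gene, which spermatogonia also express, fell by 1.29-fold, to 247 ± 22.9 CPM in FXR-/- testes against 320.2 ± 31.4 CPM in WT testes, and Bmp4, a growth factor gene, rose by 1.32-fold, to 12.3 ± 1.54 CPM against 9.32 ± 1.25 CPM in WT testes (SD, n = 5 each; edgeR adjusted p = 0.00934 and 0.0328). Bmp4 lost its call without any 1 of 7 mice (adjusted p up to 0.0731), and both genes overlap annotated transcripts on the other strand.

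**Figure D5:**
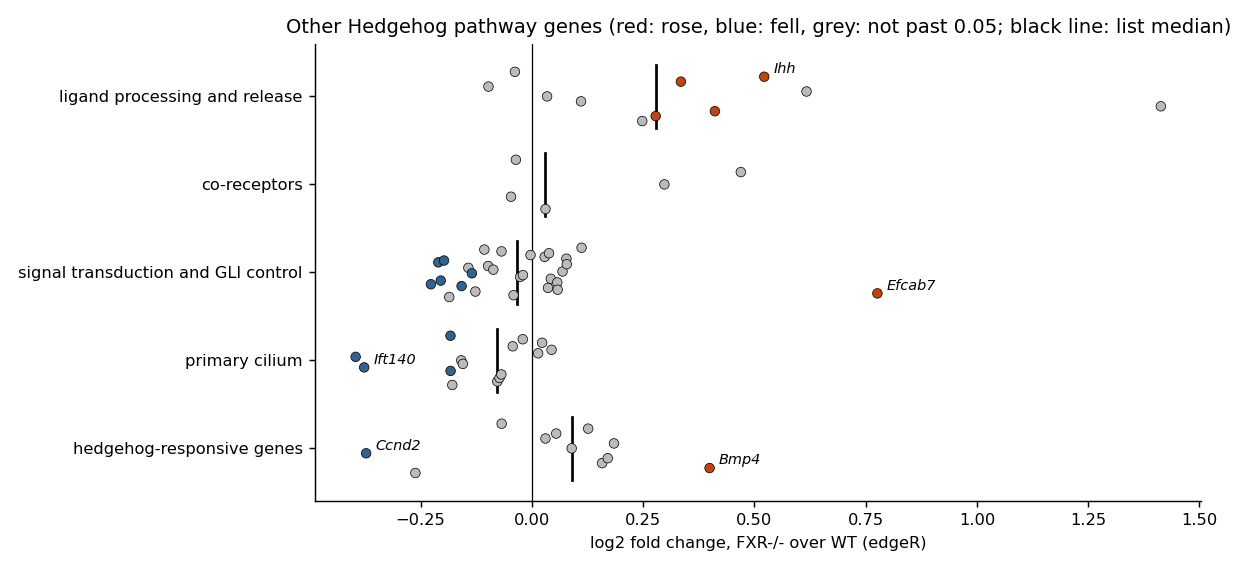
Log2 fold change, FXR-/- over WT (horizontal axis), of the tested genes of 5 Hedgehog pathway lists, 1 point per gene, red for genes that rose, blue for genes that fell and grey for the rest, with a black line at each list's median. The 4 called genes of ligand processing and release are higher and the 4 called cilium genes lower.

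Other cell types of the testis were read from their own marker lists. Of 11 Leydig cell markers, 3 fell and 8 did not pass, and their sum was 695 to 1070 CPM in FXR-/- testes, lowest in mouse 8, and 885 to 1202 CPM in WT testes. The falls were Nr5a1, the gene of the steroidogenic factor SF-1, which Sertoli cells also express, at a log2 fold change of -0.35, the lipoprotein receptor gene Scarb1 at -0.46 and the steroid dehydrogenase gene Hsd3b1 at -0.44 (edgeR adjusted p = 0.0159, 0.019 and 0.0345). Scarb1 lost its call without FXR-/- mouse 11 and Hsd3b1 without any 1 of 5 mice (adjusted p up to 0.0518 and 0.0812). The 8 Leydig markers that did not pass went both ways. Cyp17a1, Star, Hsd17b3 and Fdx1 had log2 fold changes of 0.40, 0.34, 0.18 and 0.16. Cyp11a1, Hsd3b6, Insl3 and Lhcgr had log2 fold changes of -0.14, -0.39, -0.42 and -0.23. These 8 were named after their values were seen. Peritubular myoid and smooth muscle markers summed to 1101 to 1434 CPM in FXR-/- testes, highest in mouse 8, and 1138 to 1351 CPM in WT testes, with Myl9, a myosin light chain gene, the only 1 of 7 to fall (log2 fold change -0.21, edgeR adjusted p = 0.0135). Endothelial markers (178 to 246 CPM in FXR-/- testes and 194 to 225 CPM in WT testes, Erg rising, 6 of 7 not passing) and macrophage markers (69.5 to 99.1 CPM and 80.5 to 89.1 CPM, 0 of 6 passing by edgeR, 1 by DESeq2 and 1 at an unadjusted edgeR p under 0.05) overlapped between the groups. DESeq2 called 2 of the 7 endothelial markers higher and limma-voom 1. Erg had an edgeR adjusted p of 0.0265 and lost its call without any 1 of 5 mice (adjusted p up to 0.0656), and Mrc1, the macrophage mannose receptor gene, had 35.1 ± 5.13 CPM in FXR-/- testes and 37.5 ± 1.49 CPM in WT testes (SD, n = 5 each).

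Adipocyte markers summed to 198 to 1230 CPM in FXR-/- testes and 47.7 to 191 CPM in WT testes, with 7 of 8 rising by edgeR and 3 by limma-voom, among them by edgeR Lpl, Retn and Cfd at log2 fold changes of 2.31, 3.28 and 3.99 (edgeR adjusted p = 0.00105, 0.0148 and 0.00817). Their sum was highest in FXR-/- mice 9 and 10. Without these 2 mice the log2 fold changes of Dhh and Ptch1 were -0.57 and -0.41 (edgeR adjusted p = 0.00487 and 0.0321), with the 3 other FXR-/- mice alone. Adipocyte markers were still higher in those 3 mice, with sums of 198 to 349 CPM against 47.7 to 191 CPM in WT mice and log2 fold changes of 1.73 for Lpl and 2.61 for Cfd (edgeR adjusted p = 0.00202 and 0.0369), while Retn lost its call (edgeR adjusted p = 0.0702). The part of the adipocyte difference in the Dhh and Ptch1 values was not tested.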

How the data were processed

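RNA of whole testes from 10 mice was sequenced, 1 library per mouse. The authors deposited raw read counts per gene and, per the file headers, normalized values and normalized values divided by gene length. The submitters' processing notes name FastQC 0.10.1, CASAVA, Bowtie, TopHat2 2.0.10, Bowtie2 2.1.0 and the mm10 build; they give no read counter, annotation or strand setting. The deposited normalized values, another unit, had lost their decimal marks; their scaling per library was recovered (100% of genes above 1000 counts within 0.0001 on the log10 scale) and served only as an alternative. Of 30719 genes, 30212 matched GENCODE M21 (GRCm38), and 27 symbols turned into dates were replaced.

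Counts were scaled by TMM, filtered with filterByExpr, and compared in R 4.3.3 by the two-sided quasi-likelihood test of edgeR 4.0.16; p-values were adjusted over 18559 genes (Benjamini-Hochberg). Library totals ran from 32330029 to 39655170 counts. DESeq2 1.42.0, limma-voom (limma 3.58.1), other scalings, no filter and leaving out each mouse were alternatives. The fit was tested on simulated data. Standard errors are the absolute log2 fold change over the square root of F. Exact permutation tests used all 252 assignments of mice, and all of the fewer assignments of the remaining mice where a mouse was left out. Correlations used 100000 permutations within genotypes. The p-values set the genotype difference against the spread between these mice. The labels do not say whether mice shared a litter. If litters differed between the genotypes, litter and genotype could not be told apart. The 8 genes and all lists were chosen with earlier results of these data known. Named beside the 8 genes were up to 4 called genes of each pathway list and up to 3 of each cell type list with the smallest p, the most abundant gene where none was called, and the 5 genes most like Dhh and Gli1. Promoter sequences are from RefSeq. Results for 2 genes of the pathway lists, which stay in the counts, are not reported here.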

Additional observations from a re-analysis of the deposited data

Results flagged for a closer look

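In 30 groups of 5 mice, 4 held a mouse far from the other 4 by Dixon's test, where chance gives about 1 in 20 independent groups. These groups were not independent, because the ratios reuse counts of the same genes and most flags came from FXR-/- mouse 8. Dhh was 158 CPM in FXR-/- mouse 10, against 126 to 133 CPM in the other FXR-/- mice, and still below every WT mouse. Hhip was 27.9 CPM in FXR-/- mouse 8, against 16.6 to 19.0 CPM in the other FXR-/- mice. The log2 ratio of Gli1 to Dhh was -0.25 in FXR-/- mouse 8, against -0.94 to -0.75 in the other FXR-/- mice, and the log2 ratio of Ptch1 to Dhh was 0.12 in the same mouse, against -0.43 to -0.28.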

How the results depend on the processing

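Dhh and Ptch1 were lower and the only ones of the 8 genes called under every alternative run. Hhip, not called, changed sign: -0.00093 with the deposited scaling, -0.00019 with DESeq2, -0.025 with limma-voom, and -0.16 to 0.075 without single mice. Without single mice Gli2 ran from -0.028 to 0.057 and Cdon from -0.13 to 0.034, with 0.00058 for Cdon under library totals. Genes called over the whole table numbered 2576, against 1427 to 2867 without single mice (1427 without FXR-/- mouse 11, 1601 without WT mouse 4, 1635 without FXR-/- mouse 12) and 3502 with DESeq2. Higher calls made up 44.5% of them, against 61.5% under library totals alone and 53.0% under upper-quartile scaling. The log2 difference of Dhh to Sertoli markers was -0.21 with the mean log2 CPM of the list and -0.18 to -0.075 without single mice, and that of Ptch1 to Dhh -0.025 to 0.13. Among called genes, Ift122 lost its call under upper-quartile scaling, library totals and no filter (edgeR adjusted p = 0.0539, 0.0983 and 0.0639), Ihh under no filter (0.0657) and Gpc3 under the deposited scaling (0.0526). The causes were not tested. No paired analysis was made because the labels give no pairing of mice. Shh, Ihh and Nr1h4 are limited by their low counts.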
